A study of Mus musculus with 4 samples.

Results

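Igfbp3, Igfbp5 and Igfbp6 encode 3 secreted proteins that bind insulin-like growth factors. They were taken by name, with earlier results of these data known, and they are 3 of the 3891 genes read from the deposited table. Stromal cells with gp38 (PDPN) on their surface, and without CD45, EpCAM or CD31, had been sorted from digested small intestine of male wild type C57Bl/6 mice, 8 weeks old, and all samples shared this genotype, age and sort. They were profiled as 2 10X Genomics libraries, which hold 2547 and 14344 cells at a median of 8757 and 6874 UMIs (unique transcript tags) per cell, and as 2 Smartseq2 plates. The labels do not give the number of mice behind a library, so that the library is the replicate. The p-values below rest on how differences between groups of cells vary over these 2 libraries only. The libraries share 7 cell barcodes.

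The 10X cells were placed in gates, meaning groups set by whether a cell had a UMI of a few genes. Cells with Sox6, a transcription factor of the subepithelial cells that lie against the epithelium, were split by Wif1, a secreted Wnt inhibitor, and by Adamts18, a matrix protease. The Wif1 gate held 114 and 817 cells in library 1 and library 2, the Adamts18 gate 18 and 174, and the gate with neither gene 153 and 1704. A further 0 and 4 cells had both genes. Of the cells without Sox6, those with at least 3 of Inmt, Penk, Vit and Scara5 formed the mesothelial-like gate (331 and 1107 cells). Those with at least 3 of Chodl, Dner, Thbs2 and Ptn formed the Fibin type gate (100 and 697), then those with Grem1, a BMP antagonist, the crypt gate (1021 and 4837), and then those with Lpl, lipoprotein lipase, the villus gate (611 and 3699). The remaining 199 and 1305 cells had no gate and entered no comparison.

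Insulin-like growth factors are small secreted hormones that promote growth and survival of many cells, the intestinal epithelium among them. In tissue most of them are held by binding proteins, which set how long the factors last and how many reach the receptor. IGFBP3 is the main carrier in blood and is also made locally, IGFBP5 binds to extracellular matrix and is cut by the protease PAPP-A, and IGFBP6 prefers IGF-II over IGF-I.

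The genes lie on 3 chromosomes. In GENCODE M21 (GRCm38), Igfbp3 is a protein-coding gene at chr11:7206086-7213923 on the minus strand, Igfbp5 at chr1:72857932-72874884 on the minus strand and Igfbp6 at chr15:102144362-102149511 on the plus strand. The 250 bases before the transcription start, from the RefSeq table for GRCm38.p6, are shown because they are the region where transcripts of the members begin, and they differ between members in their AT-rich letters. They span chr11:7213924-7214173 (minus strand), chr1:72874866-72875115 (minus strand) and chr15:102143936-102144185 (plus strand), and the starts of that table are not those of GENCODE for Igfbp5, where it lies inside the GENCODE gene, and Igfbp6, where it lies before it. Positions below hold for the RefSeq starts only.
Igfbp3: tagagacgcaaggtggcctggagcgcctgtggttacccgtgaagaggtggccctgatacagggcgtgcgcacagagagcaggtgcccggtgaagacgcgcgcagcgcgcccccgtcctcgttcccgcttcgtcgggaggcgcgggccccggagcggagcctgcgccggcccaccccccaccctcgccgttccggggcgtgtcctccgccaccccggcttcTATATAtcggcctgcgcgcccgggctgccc
Igfbp5: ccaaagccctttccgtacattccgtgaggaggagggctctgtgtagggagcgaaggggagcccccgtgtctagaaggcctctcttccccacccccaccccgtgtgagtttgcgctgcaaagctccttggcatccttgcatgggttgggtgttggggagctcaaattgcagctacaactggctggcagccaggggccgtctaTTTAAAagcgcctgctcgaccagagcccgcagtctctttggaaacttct
Igfbp6: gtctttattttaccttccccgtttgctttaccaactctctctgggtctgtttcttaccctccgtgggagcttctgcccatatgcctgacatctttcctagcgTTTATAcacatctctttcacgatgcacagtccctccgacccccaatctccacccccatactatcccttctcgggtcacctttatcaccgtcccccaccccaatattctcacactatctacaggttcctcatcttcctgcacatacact

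Capitals mark the letters TATAAA (the TATA box, on either strand), TATATA and TTTAAA, of which the last 2 were chosen after these sequences were read. Igfbp3 has TATATA at -30 from the start, Igfbp5 TTTAAA at -49, and Igfbp6 TATAAA on the reverse strand at -148. Of the 32851 promoters in the table, 5.25% hold TATATA, 12.1% TTTAAA and 12.4% TATAAA on either strand in the same window. GGGCGG, the GC box, is in 32.7% of them and these letters are in none of the 3 windows. The windows differ in base composition, with 73.2% G and C in Igfbp3, 58.8% in Igfbp5 and 49.6% in Igfbp6, against a median of 52.4% over all promoters. These matches describe letters, and no value of the cells was tested against them.

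The gates were checked against marker lists. In the Sox6 gates the summed level of the 8 subepithelial markers was 57.0 to 96.0 UMIs per 10000 UMIs of the cells, against 5.63 to 37.4 in the other gates, the highest of these being the Fibin type. The Fibin type list was at 70.1 and 55.5 in its own gate, with Fibin itself at 29.5 and 17.5. The label of the mesothelial-like gate was met only in part. Its own list was highest there, at 10.8 and 13.6, but Wt1, a transcription factor of the mesothelium, had a UMI in 12.7% and 17.6% of its cells. The crypt list stood at 50.0 and 41.8 in the same gate, above the 39.4 and 36.6 of the crypt gate, and 72.5% and 60.8% of its cells had Grem1. The name is therefore used below for the rule that set the gate, not as a cell type. The gates also ran into each other, since 79.6% to 89.7% of the cells in the Sox6 gates had Lpl. The crypt label too was met only in part, as that gate had the villus list at 43.6 and 56.9, above its own list. The villus list was at 117 and 141 in the villus gate and at 95.7 and 107 in the Adamts18 gate. Smooth muscle markers moved with the Sox6 gates. At least 2 of the 5 had a UMI in 23.5% to 51.8% of Sox6 cells and in 0.604% to 12% of the other gates, at a summed level of 4.49 to 7.58 against 0.251 to 1.89. Most of it was Myh11, at 3.54 to 7.05, while Cnn1 was at 0 to 0.139. Ungated cells with smooth muscle markers had Igfbp5 at 28.2 and 19.5 UMIs per 10000, and their part in the Sox6 differences was not tested. At least 2 glia markers had a UMI in 3.64% of the gate with neither gene in library 2 and in at most 0.654% of any other gate and library. At least 2 of 5 pericyte markers had a UMI in 78.5% to 96.5% of Sox6 cells and in 78% and 74.6% of Fibin type cells. In the other gates this share was 6.95% to 37.5%. Their summed level was 8.74 to 11.9 in the Sox6 gates and 16.1 to 23.1 in the crypt and villus gates. Their part in the differences was not tested.

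The members had different orders over the gates, as the plot of their levels shows. Igfbp3 was highest in the villus gate, Igfbp5 in the villus and Wif1 gates, and Igfbp6 in the mesothelial-like gate. The Adamts18 gate was low for all 3. Levels are given per member, and levels of different members are not compared.

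**Figure D1:**
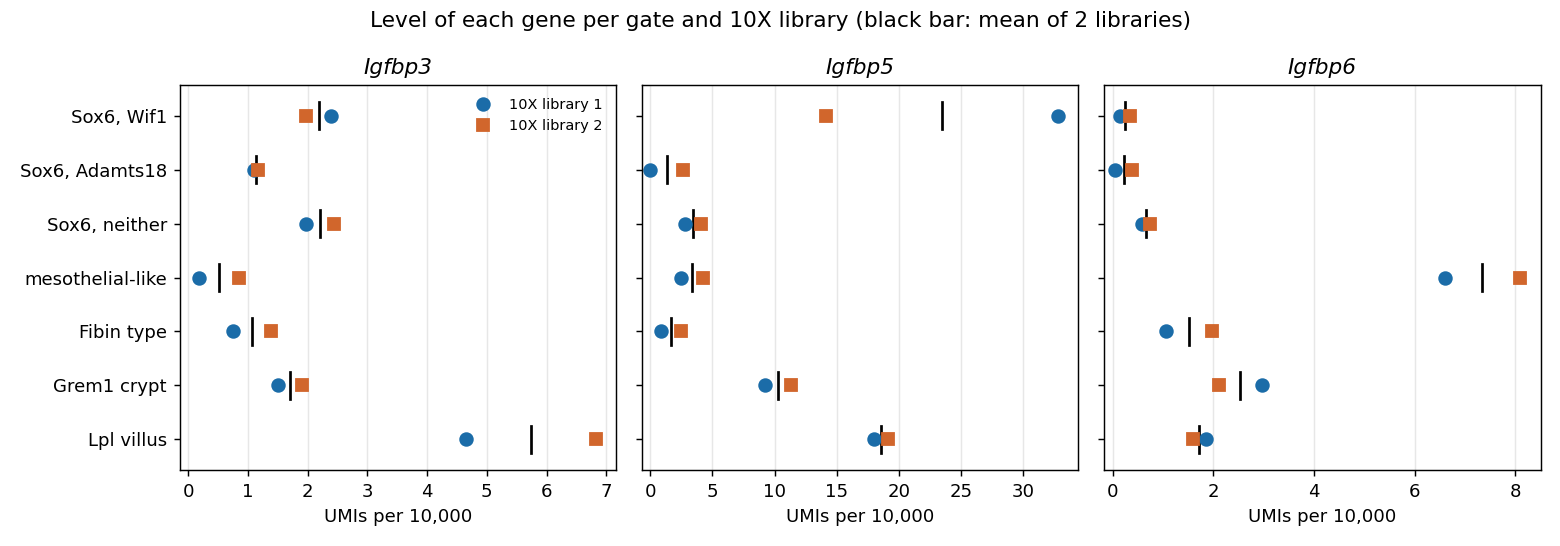
Level of Igfbp3, Igfbp5 and Igfbp6 in each of 7 gates, in UMIs per 10000 UMIs of the gate's cells (horizontal axis, linear, a separate scale for each gene). Circles are 10X library 1, squares 10X library 2 and black bars the mean of both. Igfbp3 is highest in the villus gate (4.66 and 6.83), Igfbp6 in the mesothelial-like gate (6.60 and 8.10), and the libraries stand furthest apart for Igfbp5 in the Wif1 gate (32.8 and 14.1).

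Igfbp3, the main serum carrier of the family, was at 4.66 UMIs per 10000 in the villus gate of library 1 and at 6.83 in library 2. The gate with neither Wif1 nor Adamts18 followed at 1.97 and 2.45, and the Wif1 gate at 2.39 and 1.98. These neighbours could not be ordered, as their libraries overlap, whereas both villus libraries stood above them. The crypt gate was at 1.5 and 1.90, the Adamts18 gate at 1.11 and 1.17, and the Fibin type gate at 0.756 and 1.39. The mesothelial-like gate was lowest, at 0.175 and 0.859, and the ranges of the last 3 gates overlap between neighbours. Igfbp3 was spread over many cells of the Wif1 gate and the gate with neither gene at low levels, whereas 33.3% and 22.4% of Adamts18 cells had a UMI. In the Wif1 gate the share was 74.6% and 62.9%, against 63.3% and 60.8% in the villus gate, although the level was lower. When each cell was thinned to 2000 UMIs, the Wif1 share was 33.3% and 28.7% and the villus share 40.9% and 44.7%. The unthinned order of these gates thus goes against both the level and the thinned share, beside a median of 11976 and 9682 UMIs per cell in the Wif1 gate and 7939 and 5982 in the villus gate. Cells at 30 or more Igfbp3 UMIs per 10000 made up 2.62% and 6.16% of the villus gate and at most 0.806% of any other gate.

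Igfbp5, the matrix-bound member, was at 18 and 19.1 UMIs per 10000 in the villus gate and at 32.8 and 14.1 in the Wif1 gate. The Wif1 level was therefore above the villus gate in library 1 and below it in library 2, and its mean of 23.4 ± 13.2 (SD, n = 2) is not apart from the 18.5 ± 0.713 of the villus gate. By mean natural log value per cell, which weighs high cells less, the villus gate came first. The crypt gate was at 9.20 and 11.3, below both villus libraries and above the 4 gates that follow. The gate with neither gene was at 2.78 and 4.04, the mesothelial-like gate at 2.48 and 4.24, and the Fibin type gate at 0.864 and 2.44. In the Adamts18 gate, 0 of the 18 cells of library 1 had an Igfbp5 UMI (exact upper bound 18.5%), and library 2 was at 2.63. The first 2 of these 4 gates overlap, as do the last 2.

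The Wif1 gate was not uniform for Igfbp5. In library 1, 53 of its 114 cells had no Igfbp5 UMI (46.5%), while 28.1% of the cells were at 30 or more UMIs per 10000 and 12 cells at 100 or more. In library 2, 405 of 817 cells had none (49.6%), 13.6% were at 30 or more and 26 cells at 100 or more. The 10% of cells with the most Igfbp5 held 57.5% and 73.2% of the gate's Igfbp5 UMIs, against 48.1% and 43.8% in the villus gate. The villus gate had fewer cells at 0, 27.0% and 21.5%, and 22.1% and 22.7% at 30 or more. In the Adamts18 gate of library 2, 93.2% of the Igfbp5 UMIs lay in the 10% of cells with the most.

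**Figure D2:**
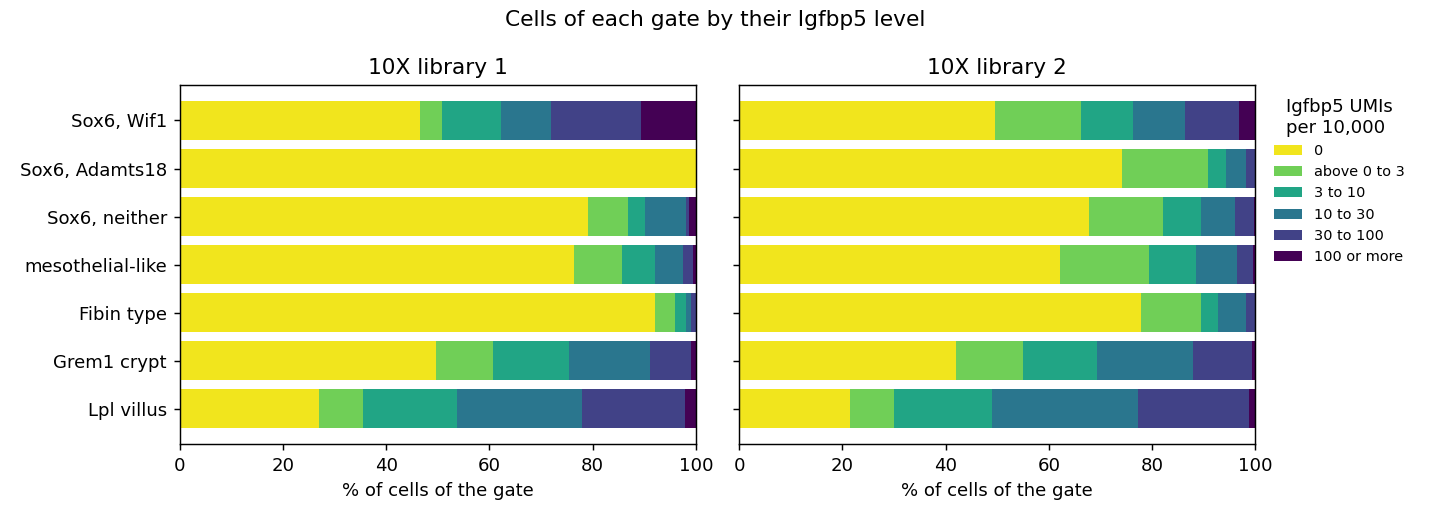
Share of the cells of each gate (horizontal axis, percent of cells, stacked to the whole gate) in classes of their Igfbp5 level, in UMIs per 10000, for each 10X library. In the Wif1 gate, cells without a UMI (46.5% and 49.6%) stand beside cells at 30 or more (28.1% and 13.6%), and all 18 cells of the Adamts18 gate in library 1 are at 0.

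Igfbp6, the member that prefers IGF-II, was at 6.60 and 8.10 UMIs per 10000 in the mesothelial-like gate, where 83.4% and 82.1% of the cells had a UMI. The crypt gate was next at 2.96 and 2.11 (65.6% and 54.6% of cells), and its libraries lay below both of the mesothelial-like gate. The villus gate was at 1.86 and 1.59 and the Fibin type gate at 1.06 and 1.97, and these gates overlap. The Sox6 gates were lowest. The gate with neither gene was at 0.581 and 0.750, the Wif1 gate at 0.143 and 0.343, and the Adamts18 gate at 0.0483 and 0.392, where 1 and 26 cells had a UMI. The Wif1 and Adamts18 gates overlap, and both lay below the gate with neither gene. No library of a Sox6 gate reached any library of the other 4 gates.

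Free RNA in the droplets can give a cell a UMI of a gene it does not express, so the shares were set beside those of ungated cells with markers of other cell types. Of the 54 immune cells in library 2 (median 4219 UMIs), 7.41% had Igfbp3, 24.1% Igfbp5 and 1.85% Igfbp6, and library 1 had only 3 such cells. All 4 immune cells with Igfbp3 also had Igfbp5, and doublets, which were not called, were not tested as a part of these shares. After thinning to 2000 UMIs, 44 immune cells remained, with Igfbp3 in 6.82% (exact 95% interval 1.43% to 18.7%), Igfbp5 in 13.6% (5.17% to 27.4%) and Igfbp6 in 0. Cells with glia markers in library 2 (median 2782 UMIs) left 30 after thinning, with Igfbp3 in 10%, Igfbp5 in 26.7% (12.3% to 45.9%) and Igfbp6 in 6.67%. Of 8 thinned cells with epithelial markers, 5 had Igfbp5 and 5 had Igfbp6. The background is thus known only within wide limits.

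Across the 7 gates of library 2, the thinned Igfbp3 share lay above the intervals of both the immune and the glia cells (upper bounds 18.7% and 26.5%) in the villus gate (44.7%), the gate with neither gene (29.5%) and the Wif1 gate (28.7%). For Igfbp5 (27.4% and 45.9%) this held in the villus gate (68.5%), and for Igfbp6 (8.04% and 22.1%) in the mesothelial-like gate (59.7%) and the crypt gate (27.1%). These Igfbp5 and Igfbp6 shares lay within the interval of the 8 cells with epithelial markers (24.5% to 91.5% for each gene). Of 9 thinned cells with endothelial markers, 6 had Igfbp3 (29.9% to 92.5%), an interval that holds the villus share. The classes given here thus depend on the cells taken as background. Above the immune interval but within that of the glia cells were Igfbp5 in crypt (44.7%) and Wif1 cells (35.5%), Igfbp3 in crypt cells (18.8%), and Igfbp6 in Fibin type (19.6%) and villus cells (17.2%). The other thinned shares lay within or below the immune interval. These were Igfbp5 in the mesothelial-like gate (24.3%), the gate with neither gene (19.4%), the Fibin type gate (13.5%) and the Adamts18 gate (11.6%), Igfbp3 in the Fibin type gate (15.4%), the Adamts18 gate (11%) and the mesothelial-like gate (9.62%), and Igfbp6 in the 3 Sox6 gates (3.94% to 7.49%). No expression is read from these shares. A few cells were nonetheless high in Igfbp5, with 7 Adamts18 cells of library 2 at 10 to 30 and 3 at 30 to 100 UMIs per 10000, and 38 and 13 Fibin type cells. For Igfbp6, thinning left a UMI in 0 of 114 Wif1 cells of library 1 (exact upper bound 3.18%), and in 32 of 812 of library 2. Intervals and limits given here cover counting error only.

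**Figure D3:**
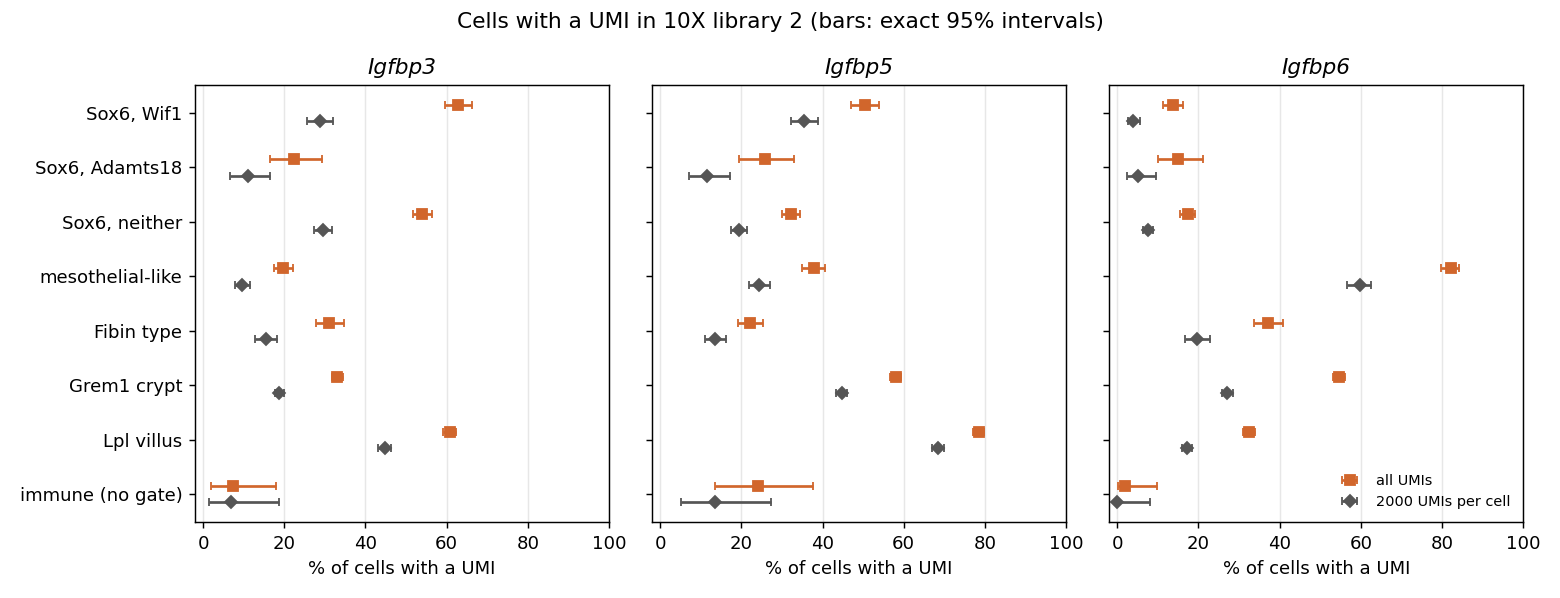
Share of cells with at least 1 UMI of each gene in 10X library 2 (horizontal axis, percent of cells), per gate and in immune cells without a gate. Orange squares use all UMIs, grey diamonds cells thinned to 2000 UMIs, and bars are exact 95% intervals for counting error. Igfbp6 is found in 82.1% of mesothelial-like cells and in 1.85% of the immune cells, whereas Igfbp5 is found in 24.1% of the immune cells.

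Differences between gates were tested on natural log values, averaged over the cells of each gate in each library, with limma, which used all 7 gates and adjusted p-values over 1516 genes (Benjamini-Hochberg). Each difference below is such a log value, averaged over the libraries, with the SD over 2 libraries. The p-values do not follow from this SD. Their spread was pooled over all 7 gates, with the mean difference between libraries removed, and was moderated over genes. On this scale the change of genes with low values is understated. Calls were common, so the share of all genes called is given with each comparison.

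The first comparison asked how the Sox6 subepithelial gates differ from the other fibroblast gates. Of all genes tested, 43.6% were higher and 35.0% lower (78.6% called), and all 3 members were called. Igfbp6 was lower by -0.77 in library 1 and -0.70 in library 2 (-0.74 ± 0.06, adjusted p = 1.54e-07). Igfbp5 was lower by -0.22 and -0.44 (-0.33 ± 0.15, adjusted p = 0.00718). This mean joins unlike Sox6 gates. The Igfbp5 mean natural log value was 1.48 in the Wif1 gate, against 1.06 over the other fibroblast gates. It was 0.53 in the gate with neither gene and 0.19 in the Adamts18 gate. The Wif1 gate thus stood above the mean of the other fibroblasts, and the call does not hold for it. Igfbp3 was higher by 0.19 and 0.01 (0.10 ± 0.13, adjusted p = 0.0443), an SD above the difference itself, and 5 of 8 other settings lost the call (adjusted p 0.00176 to 0.344). The Igfbp5 call was lost on a log2 scale and when only cells that met a single gate rule were kept.

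The gates marked by Wif1 and by Adamts18 lie within the Sox6 cells, and 14.2% of genes were higher and 17.3% lower in the Adamts18 gate (31.5% called). Igfbp5 was lower in the Adamts18 gate by -1.75 in library 1, where that gate has no Igfbp5 UMI, and by -0.82 in library 2 (-1.29 ± 0.66, adjusted p = 0.000171). Igfbp3 was lower by -0.49 in both libraries (adjusted p = 0.000559). For Igfbp6, which was near 0 in both gates, the difference was -0.05 and 0.02 (adjusted p = 0.942). Against the Sox6 gate with neither gene (11.2% of genes higher and 8.31% lower, 19.5% called), Igfbp3 was again lower in the Adamts18 gate, by -0.32 and -0.48 (-0.40 ± 0.11, adjusted p = 0.004). Igfbp5 differed by -0.45 and -0.23 (adjusted p = 0.199) and Igfbp6 by -0.11 and -0.07 (adjusted p = 0.504), so neither passed the threshold. Both Igfbp3 calls were lost on a log2 scale, and the Adamts18 gate of library 1 rests on 18 cells.

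The mesothelial-like gate was compared with the mean of the other 6 gates, where 30.1% of genes were higher and 35.4% lower (65.5% called). Igfbp6 was higher by 1.20 and 1.30 (1.25 ± 0.07, adjusted p = 1.49e-07) and kept its call under all 8 other settings. Igfbp3 was lower by -0.62 and -0.44 (-0.53 ± 0.13, adjusted p = 1.55e-05), also under all 8. Igfbp5 was lower by -0.47 and -0.34 (-0.40 ± 0.09, adjusted p = 0.0187), but 5 of 8 other settings lost this call (adjusted p 0.0226 to 0.977 over the 8). It was lost on the log2 scale (-0.51, adjusted p = 0.598), without the filter on low values (-0.40, adjusted p = 0.0754) and with a higher gate threshold (-0.29, adjusted p = 0.0649). With only the cells that met a single gate rule (18 and 60 in this gate), the difference was 0.05 (adjusted p = 0.818). With the cells that had Grem1 left out of this gate and those without Ackr4 left out of the crypt gate, a setting chosen after the data were seen, it was 0.00 (adjusted p = 0.977).

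The Fibin type gate, with 19.8% of genes higher and 42.2% lower (61.9% called), was lower for Igfbp5 by -0.84 and -0.69 (-0.77 ± 0.11, adjusted p = 0.000427) and for Igfbp3 by -0.30 and -0.24 (-0.27 ± 0.04, adjusted p = 0.00215). Both calls were lost on the log2 scale (adjusted p = 0.0868 for Igfbp5 and 0.083 for Igfbp3). With only cells that met a single gate rule, Igfbp3 was at -0.10 (adjusted p = 0.281). Igfbp6 differed by -0.25 and -0.02 (-0.14 ± 0.16, adjusted p = 0.114). It was called lower under 3 of 8 other settings, and on the log2 scale it was higher, by 0.42 (adjusted p = 0.304). Between the crypt and the villus gate, 15.6% of genes were higher and 8.11% lower (23.7% called), and all 3 members were among them. Igfbp5 was lower in the crypt gate by -0.82 and -0.75 (-0.79 ± 0.05, adjusted p = 0.00689) and Igfbp3 by -0.67 and -0.77 (-0.72 ± 0.07, adjusted p = 0.00019). Igfbp6 was higher there by 0.37 and 0.28 (0.32 ± 0.07, adjusted p = 0.0262), a call that 3 of 8 other settings lost. The Igfbp5 call was lost on the log2 scale (adjusted p = 0.643). Its difference was -1.37 when only cells that met a single gate rule were kept (adjusted p = 0.00195). The comparisons share gates and are not independent of each other.

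**Figure D4:**
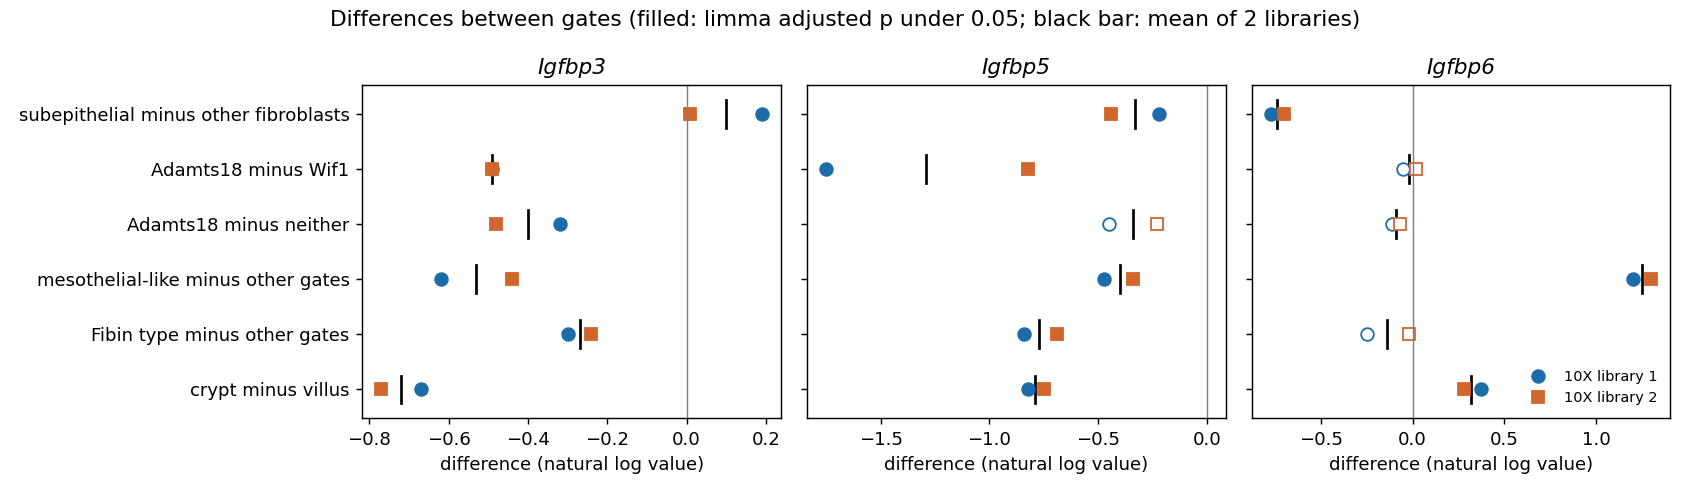
Difference in mean natural log value for each gene and comparison (horizontal axis; the line marks 0). Circles are 10X library 1, squares 10X library 2, black bars the mean, and filled symbols mark an adjusted p under 0.05 in limma. Igfbp6 lies furthest above 0 in the mesothelial-like gate (1.20 and 1.30), and Igfbp5 furthest below 0 in Adamts18 against Wif1 (-1.75 and -0.82).

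Both the crypt and the mesothelial-like gate held cells that differed in the members, and these splits were made after the values were seen. The parts of a gate were not tested against each other. In the crypt gate, cells with a UMI of Ackr4, an atypical chemokine receptor and crypt marker, had Igfbp5 at 3.50 and 4.10 UMIs per 10000, and cells without it at 18.6 and 20.4. The latter are close to the villus gate (18 and 19.1). Igfbp3 followed the same division, with 0.548 and 0.733 in cells with Ackr4 and 3.06 and 3.38 in those without. Igfbp6 went the other way, at 3.26 and 2.36 with Ackr4 and 2.46 and 1.78 without. The cells without Ackr4 carried the villus list at 90.9 and 101 UMIs per 10000 and the crypt list at 15.9 and 17.5, whereas those with Ackr4 had 14.9 and 21.9 of the villus list and 53.6 and 51.6 of the crypt list. Ackr4 is 1 of the 5 crypt markers and gave 4.18 and 4.45 of that level, a part that the split itself fixed. The crypt gate thus includes cells with villus markers beside Grem1, and the comparison was fitted again without them and without the mesothelial-like cells that had Grem1. The difference from crypt to villus was then -1.48 for Igfbp5, -1.01 for Igfbp3 and 0.44 for Igfbp6, against -0.79, -0.72 and 0.32 with them. The cells left out had been chosen with their levels of the members known. The larger differences therefore restate the split, and no p-value is read from this refit.

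In the mesothelial-like gate, the 91 and 434 cells without Grem1 had Igfbp6 at 16.0 and 15 UMIs per 10000, and the 240 and 673 cells with Grem1 at 3.76 and 4.30. The latter were closer to the crypt cells with Ackr4. Igfbp5 was at 5.26 and 7.08 without Grem1 and at 1.64 and 2.68 with it. The mesothelial-like list was at 22.2 and 20.6 in the cells without Grem1 and at 7.44 and 9.79 in those with it, and Wt1 had a UMI in 37.4% and 32.3% of the former and in 3.33% and 8.17% of the latter. Igfbp6 was found in 93.4% and 96.8% of the cells without Grem1. In the same refit, the mesothelial-like gate was higher in Igfbp6 by 2.06, against 1.25 before. This rise restates the split, since the cells kept were those seen to have more Igfbp6.

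**Figure D5:**
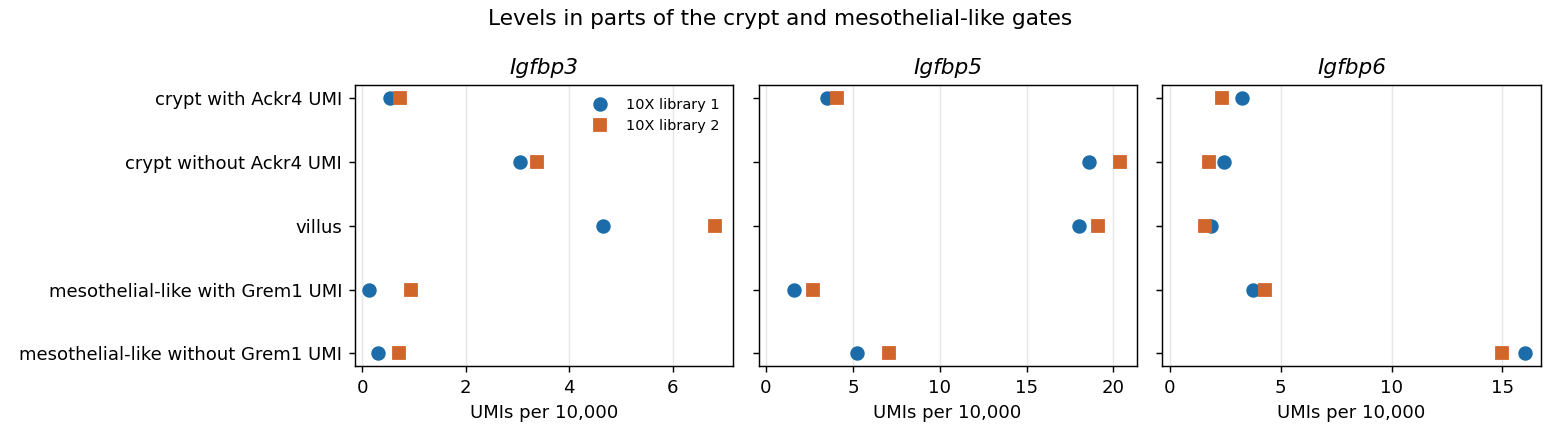
Level of each gene in UMIs per 10000 (horizontal axis, a separate scale for each gene) in the crypt gate split by an Ackr4 UMI, in the villus gate and in the mesothelial-like gate split by a Grem1 UMI. Circles are 10X library 1 and squares 10X library 2. Igfbp5 in crypt cells without Ackr4 (18.6 and 20.4) lies beside the villus gate, and Igfbp6 is at 16.0 and 15 in mesothelial-like cells without Grem1.

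Most gated cells had at least 1 member. In the villus gate, 3.76% and 4.95% of the cells had none, 47.6% and 51.6% had 2 and 16.9% and 12.5% had all 3. In the Adamts18 gate 61.1% and 56.3% had none, and in the Fibin type gate 49.0% and 34.3%. The other gates lay between, with 10.5% to 28.8% of the cells without any member.

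Co-detection was set beside the product of the single shares, which is the share that independent detection at those rates would give. Differences in depth between cells raise the observed share by themselves, so that the thinned values are given too. Igfbp3 and Igfbp5 were found together in 25.7% and 26.6% of crypt cells, 1.56 and 1.39 times the product, and in 11.8% and 12.9% after thinning, 1.67 and 1.54 times. In villus cells they were together in 41.6% and 46.4%, 0.899 and 0.972 times the product, and 0.739 and 0.901 times after thinning. The pair thus overlapped above the product in the crypt gate and below it in the villus gate, in both libraries. The division of the crypt gate by Ackr4 runs the same way for both genes.

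Igfbp3 and Igfbp6 were together less often than the product in the villus gate, in 20.3% and 14.7% of cells (0.777 and 0.746 times, thinned 0.458 and 0.573). In the crypt gate the pair was in 19.1% and 14.6% (0.892 and 0.806 times, thinned 0.668 and 0.643). Igfbp5 and Igfbp6 were together in 36.3% and 28.1% of villus cells, above the product (1.21 and 1.10 times, thinned 1.38 and 1.15). In the crypt gate that pair was close to it, at 0.979 and 0.960 times (thinned 1.03 and 0.892). In the mesothelial-like gate it was in 21.1% and 32.6% of cells (1.08 and 1.05 times, thinned 1.35 and 1.10). The pair stood further above the product in the gate with neither gene, in 6.54% and 9.27% of cells (2.99 and 1.67 times, thinned 5.03 and 1.80). Library 1 had only 10 such cells there. In the Wif1 gate the pair was at 1.33 and 1.29 times before thinning. All 3 members were together most in the villus and crypt gates, in 16.9% and 12.5% and in 15.5% and 11.8% of the cells. After thinning these shares were 3.02% and 3.4% in the villus gate and 3.37% and 2.42% in the crypt gate. The unthinned shares were 0.884 and 0.810 times the product in the villus gate and 1.43 and 1.12 times in the crypt gate.

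Correlations over the cells of a gate, on natural log values, describe which genes went with a member from cell to cell, within a shared library and at differing depth. The genes named are among the 5 with the highest or lowest mean r over the libraries, of genes in at least 10% of the gate's cells. Other members are named as well, wherever they rank. In the 1021 and 4837 crypt cells, Igfbp5 went with Adamdec1, a villus fibroblast metalloprotease (r = 0.56 and 0.67), and with Timp3, a protease inhibitor (0.57 and 0.61). It ran against Ogn, a matrix proteoglycan (-0.58 and -0.59), Prss23 (-0.54 and -0.59) and Ackr4 (-0.54 and -0.55), which is the division given above. In the 611 and 3699 villus cells, Igfbp5 again went with Timp3 (0.64 and 0.49) and with Mfap5, a microfibril protein (0.49 and 0.36), and against Wnt4 (-0.42 and -0.38) and Cxcl14, a chemokine (-0.40 and -0.33).

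Igfbp3 went with other genes in the same villus cells. Lpl, which set the gate (0.44 and 0.42), and Lrat, which stores retinol (0.39 and 0.41), were highest, and Timp3 (-0.41 and -0.37), S100a6 (-0.40 and -0.34) and Igfbp6 (-0.36 and -0.30) were on the other side. Igfbp3 and Igfbp5 themselves were at -0.35 and -0.21 there, and at 0.26 and 0.28 in crypt cells. In the 114 and 817 Wif1 cells, Igfbp5 went with Cxcl14 (0.45 and 0.39), opposite to the villus gate, and against Gas6, a ligand of TAM receptors (-0.50 and -0.37), Tnc (-0.43 and -0.38) and Ednrb (-0.38 and -0.40). In the 331 and 1107 mesothelial-like cells, Igfbp6 went with S100a6 (0.52 and 0.59) and Fbln2, a fibulin (0.49 and 0.50), and against Sfrp1, a Wnt antagonist (-0.60 and -0.58), and Grem1 (-0.56 and -0.59). Thinning each cell to 2000 UMIs lowered nearly all of these values and turned the sign of none named here.

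The genes whose mean natural log value was most like a member over the 14 points of 7 gates in 2 libraries differed by member. Points of 1 library share its depth and the correlations are a description. For Igfbp3 they included Scube1, a secreted EGF-domain protein (r = 0.923), Hmcn1, a basement membrane protein (0.853), Sertm1 (0.835) and Igfbp5 (0.780). For Igfbp5 they were the transcription factor Sox9 (0.924), Ugcg, which makes glucosylceramide (0.890), Gbp5, an interferon-induced GTPase (0.862), Itih5 (0.849) and Gpm6b (0.832). Igfbp6 had closer matches, namely Uap1, an enzyme of amino sugar synthesis (0.985), the Wnt agonist Rspo1 (0.983), the angiopoietin receptor Tek (0.982), the bicarbonate transporter Slc4a4 (0.977) and Pi16 (0.974). Igfbp6 was at -0.455 with Igfbp3 and at 0.024 with Igfbp5.

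Of 40 listed genes of the growth factor axis, 19 were in the table used here. None of the 4 receptor genes was among them, and 11 passed the filter on low values. Of these 11, the Sox6 gates against the other fibroblasts had 6 higher and 4 lower, beside 43.6% and 35.0% of all 1516 genes (median difference 0.10, all genes 0.02). The Adamts18 gate had 2 higher and 3 lower against the Wif1 gate, beside 14.2% and 17.3% (median -0.03, all genes -0.00), and 1 higher and 2 lower against the gate with neither gene, beside 11.2% and 8.31% (median -0.03, all genes -0.01). The mesothelial-like gate had 5 higher and 3 lower, beside 30.1% and 35.4% (median 0.03, all genes -0.02), the Fibin type gate 1 higher and 8 lower, beside 19.8% and 42.2% (median -0.27, all genes -0.03), and the crypt gate 4 higher and 2 lower against the villus gate, beside 15.6% and 8.11% (median 0.04, all genes -0.00). With 11 genes, nothing particular to the axis is read from these counts.

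Among the ligands, Igf1 was at 3.84 and 4.37 UMIs per 10000 in the Wif1 gate and at 0.580 and 1.02 in the Adamts18 gate, and it was lower in the latter by -1.07 ± 0.03 (SD, n = 2, limma adjusted p = 2.95e-07). Igf1 and Igfbp5 were thus both lower in the Adamts18 gate than in the Wif1 gate. Against the gate with neither gene Igf1 was lower by -0.59 ± 0.07 (adjusted p = 9.55e-05). Igf2 had a UMI in at most 0.574% of the cells of any gate and Igfbp2 in at most 1.31%.

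The proteases and their inhibitors varied more. Pappa, which encodes the protease that cuts IGFBP5, was at 5.89 and 2.95 UMIs per 10000 in the Adamts18 gate, 4 and 2.91 in the gate with neither gene and 2.40 and 1.86 in the Wif1 gate, while no other gate passed 1.36. It was higher in the Sox6 gates than in the other fibroblasts by 0.90 ± 0.25 (adjusted p = 1.31e-06). In the Adamts18 gate it was higher than in the Wif1 gate by 0.87 and 0.33 (0.60 ± 0.38, adjusted p = 0.00882), and against the gate with neither gene the difference was 0.52 and 0.10 (adjusted p = 0.169). Htra1, a serine protease that carries an IGF-binding domain, was higher in the Sox6 gates by 0.52 ± 0.12 (adjusted p = 1.06e-05) and in the Adamts18 gate against the Wif1 gate by 0.36 ± 0.21 (adjusted p = 0.0264). Stc2, an inhibitor of PAPP-A, was at 6.75 and 5.06 in the crypt gate, 6.62 and 3.33 in the mesothelial-like gate and 2.17 and 1.72 in the villus gate. Stc2 was higher in the crypt than in the villus gate by 0.76 ± 0.09 (adjusted p = 0.00417) and lower in the Sox6 gates by -0.46 ± 0.26 (adjusted p = 0.000305). Stc1, the other stanniocalcin, was found in 11.1% and 10.9% of Adamts18 cells and in at most 3.92% of the cells of any other gate.

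The matrix partners of the binding proteins were led by Fn1, fibronectin, which was higher in the Sox6 gates by 1.23 ± 0.30 (adjusted p = 2e-07) and lower in the Fibin type gate by -2.02 ± 0.25 (adjusted p = 1.57e-07). Fhl2, which can bind IGFBP5 in the nucleus, was higher in the Sox6 gates by 0.88 ± 0.13 (adjusted p = 1.05e-08) and lower in the mesothelial-like gate by -0.83 ± 0.13 (adjusted p = 6.36e-07). Thbs1, thrombospondin, was lower in the Adamts18 gate than in the Wif1 gate by -0.56 ± 0.18 (adjusted p = 5.75e-05).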

How the data were processed

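The authors aligned the 10X reads to mm10 with Cell Ranger 3.1.0, filtered and scaled cells with Seurat, and deposited 1 table of natural log values for all cells. The 10X values are not corrected, since 100% of those above 0 are whole UMIs (tolerance 0.01, scale 10000), and counts and cell totals were recovered from them. The Smartseq2 values were corrected by the integration and were only described. Of the gene rows 1 ends early and was left out. Doublets were not called, and cells over 2 times the median total were left out as an alternative. Cells with at least 2 immune markers and no gate gave the background share.

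Natural log values, averaged over the cells of each gate in each library, were fitted with limma 3.58.1 (R 4.3.3) with mean trend and the library as a block, since all gates come from the same 2 libraries. Genes above 0 in at least 5% of gated cells entered, 1516 after the gate genes were left out, with Benjamini-Hochberg adjustment at 0.05. Shares have exact 95% intervals, also at a count of 0. The flag for cells without a gate used 3 counts as the limit. Thinning used seed 7. In simulated data with 200 of 1528 genes changed by 0.5, 97.0% (crypt minus villus) and 99.0% (Adamts18 minus Wif1) were recovered. Of the calls, 2.51% and 4.81% were false. The simulation had independent noise and no other difference between gates or libraries. Its shares are means over the changed genes and need not hold for Igfbp5, whose standard error was 0.17 in both comparisons. Genes named are the members, listed genes of the growth factor axis, the 5 genes most like each member, and genes at the ends of correlations within gates, and some of these are not reported here. The members and lists were chosen with earlier results of these data known. Scripts ran in Python 3.11.15 with scipy 1.17.1 and, for tables, pandas 2.3.3 and numpy 2.4.6, with plots by matplotlib 3.10.9.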

Additional observations from a re-analysis of the deposited data

Results flagged for a closer look

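Cells without a gate entered no comparison, yet had all 3 members above the limit that a count of 0 allows. Igfbp3 was at 1.87 UMIs per 10000 in 10X library 1 and at 1.73 in 10X library 2. Igfbp5 was at 22.8 and 19.7, as high as in the villus gate, and Igfbp6 at 2.42 and 1.93. These 199 and 1305 cells had a median of 4600 and 4368 UMIs and carried the villus list at 79.9 and 74.9 UMIs per 10000. The part of the lower depth was not tested.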

How the results depend on the processing

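Of the differences in the members under planned and added settings, 111 kept their direction and side of the threshold. With the same sign, 19 lost and 4 gained the threshold, and 4 differences changed sign. Where Igfbp5 in the mesothelial-like gate changed sign, it lost the threshold too. Causes were not tested. On the scale log2(UMIs per 10000 + 0.1), the threshold was lost for the Sox6 gates against other fibroblasts by Igfbp3 (0.25) and Igfbp5 (-0.73), for Igfbp3 in the Adamts18 gate against Wif1 (-0.88) and neither (-0.89), for Igfbp5 in the mesothelial-like gate (-0.51), for Igfbp3 (-0.67) and Igfbp5 (-1.79) in the Fibin type gate, and for Igfbp5 (-0.86) and Igfbp6 (0.51) in crypt against villus. Igfbp6 gained it in Adamts18 against neither (-1.49) and, not called, changed sign in the Fibin type gate (0.42). Without the filter on low values, Igfbp3 in the Sox6 gates (0.10), Igfbp5 in the mesothelial-like gate (-0.40) and Igfbp6 in crypt against villus (0.32) lost it. Thinned to 2000 UMIs, fewer genes entered (895), Igfbp3 in the Sox6 gates (0.04) and Igfbp6 in crypt against villus (0.23) lost it, Igfbp6 in Adamts18 against Wif1 changed sign (0.01), and the calls, in the order of the comparisons in the report, were 707, 257, 150, 586, 581 and 210 genes, against 1192, 477, 296, 993, 939 and 360. With only cells that met a single gate rule, 3 and 13 Adamts18 cells and 18 and 60 mesothelial-like cells were left. The villus gate did not change. Igfbp3 (0.10) and Igfbp5 (-0.10) in the Sox6 gates and Igfbp3 in the Fibin type gate (-0.10) then lost the threshold. Igfbp6 in the Fibin type gate gained it (-0.45), and Igfbp5 in the mesothelial-like gate turned (0.05). Calls were 786 (Sox6 gates), 554 (mesothelial-like), 579 (Fibin type) and 218 (crypt against villus) genes. With a higher gate threshold, Igfbp5 in the mesothelial-like gate lost it (-0.29) and Igfbp6 in the Fibin type gate gained it (-0.31). Without cells of high total, Igfbp3 in the Sox6 gates lost it (0.10). With Ackr4 crypt cells and Grem1-free mesothelial-like cells only, chosen after seeing the data, Igfbp5 in the mesothelial-like gate was at 0.00 and Igfbp6 in the Fibin type gate gained the threshold (-0.29).

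With no replicate block, every member kept its call, and the differences did not move (Igfbp6 in the mesothelial-like gate 1.25). Counts of calls were then 1136, 396, 216, 929, 886 and 277. With 1 library left out no residual spread remains, so only values can be given, and they run over Igfbp3, Igfbp5 and Igfbp6 from 0.01 to 0.19, -0.44 to -0.22 and -0.77 to -0.70 (Sox6 gates), -0.49 to -0.49, -1.75 to -0.82 and -0.05 to 0.02 (Adamts18 against Wif1), -0.48 to -0.32, -0.45 to -0.23 and -0.11 to -0.07 (Adamts18 against neither), -0.62 to -0.44, -0.47 to -0.34 and 1.20 to 1.30 (mesothelial-like), -0.30 to -0.24, -0.84 to -0.69 and -0.25 to -0.02 (Fibin type), and -0.77 to -0.67, -0.82 to -0.75 and 0.28 to 0.37 (crypt against villus). With 18 Adamts18 cells in library 1, the exact interval for a count of 0 reaches up to 18.5%.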

Other observations

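The Smartseq2 plates were not gated, and the authors' integration fitted their values to those of the 10X cells, so they are no independent check and carry no depth. Over the 360 cells of plate 1 and the 379 cells of plate 2, the mean corrected value of Igfbp3 was 0.79 ± 0.87 and 0.66 ± 0.81 (SD over cells), that of Igfbp5 1.32 ± 1.18 and 1.30 ± 1.20, and that of Igfbp6 0.58 ± 0.82 and 0.62 ± 0.72.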
